A study of Homo sapiens with 12 samples.

Results

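The 42 genes described here encode histone lysine methyltransferases, or writers, and histone lysine demethylases, or erasers, in OVCAR8 ovarian cancer cells. They were taken by gene symbol from a fixed list of 24 writers, with the EED and SUZ12 subunits of the H3K27 complex among them, and 18 erasers. All 42 were found among the 26485 genes of the count tables, and all 42 passed the filter on low counts, which 14865 genes passed. OVCAR8 is an established human line, described in the study as Ras-mutant. Polyadenylated RNA was sequenced after 7 h with vehicle (control), with 150 nM EC359, an inhibitor of the LIF receptor, with 100 nM trametinib, a MEK inhibitor, or with both agents at those doses (combination). Each of the 4 conditions had 3 libraries of this cell line, 12 in all, and the labels do not say whether they came from separate cultures, so the p-values measure the spread between these libraries.

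Lysine methylation of histones is written by enzymes that take the methyl group from S-adenosylmethionine and is removed by the flavin-dependent KDM1 enzymes or by JmjC-domain enzymes that need iron, oxygen and 2-oxoglutarate. Methylation of H3K4 marks promoters and enhancers in use, that of H3K36 and H3K79 marks transcribed gene bodies, and that of H3K9 and H3K27 marks silent chromatin. Genes of both classes are often mutated or overexpressed in cancers, EZH2 and the KMT2 family being the best known.

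Each library held between 24790392 and 32467283 counts, and a gene with a count of 0 could still lie at up to 0.0924 to 0.121 CPM (counts scaled to library size, at a floor of 3 counts). Of the 8 epithelial and Mullerian markers, 6 lay above 1 CPM, KRT8 being the highest at a mean of 1930.0 CPM in control, while CDH1 lay at 0.149 CPM and MUC16 was at 0 in control. The defining leukocyte genes PTPRC and CD3E and the fibroblast gene DCN were at 0 in all libraries, and the 4 endothelial markers summed to at most 1.24 CPM. Only CD68 of the 5 leukocyte markers and only COL1A1 of the 5 fibroblast markers lay above 1 CPM, and the fibroblast sum, which is almost wholly COL1A1, ran from 415.0 to 436.0 CPM in control, 514.0 to 526.0 with trametinib, 220.0 to 233.0 with EC359 and 315.0 to 336.0 under both agents. The sum was lower wherever EC359 was given, and its part in the results was not tested. In RNA from whole cultures, fewer cells of a kind and less RNA per cell cannot be told apart.

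With EC359, 26 of the 42 members rose and 7 fell (edgeR, quasi-likelihood, adjusted p-value below 0.05), while 30.8% of all genes tested rose and 30.3% fell. Of the writers, 13 of 24 rose and 5 fell, and of the erasers 13 of 18 rose and 2 fell. Scaling by total counts alone moved the median of all genes to -0.15 and gave 21 members higher and 10 lower. The median log2 change was 0.24 over all members, 0.14 over the writers and 0.49 over the erasers, against -0.01 over all genes tested, and 4 members, KDM6B, KDM7A, KDM3A and KMT2A, rose at least 2-fold, as did 4.19% of all genes.

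With the combination, 27 members rose and 8 fell, against 35.0% and 34.7% of all genes. Here 14 writers rose and 5 fell, and 13 erasers rose and 3 fell. Rises of at least 2-fold were found for 8 members, against 7.27% of all genes: the writers KMT2A, KMT2C, KMT2D and DOT1L and the erasers KDM3A, KDM6A, KDM6B and KDM7A. KMT2D, at 2.01-fold, and DOT1L, at 2.03-fold, lay just above that limit, and KDM6A with EC359, at 1.99-fold, just below it. With trametinib alone, 15 members rose and 3 fell, against 13.0% and 15.2% of all genes, and none rose 2-fold, as 0.478% of all genes did. No member fell by 2-fold in any comparison, whereas 5.87% of all genes did with the combination, 2.79% with EC359 and 0.955% with trametinib. The 3 treated conditions were compared with the same 3 control libraries, so these comparisons are not independent of each other.

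**Figure D1:**
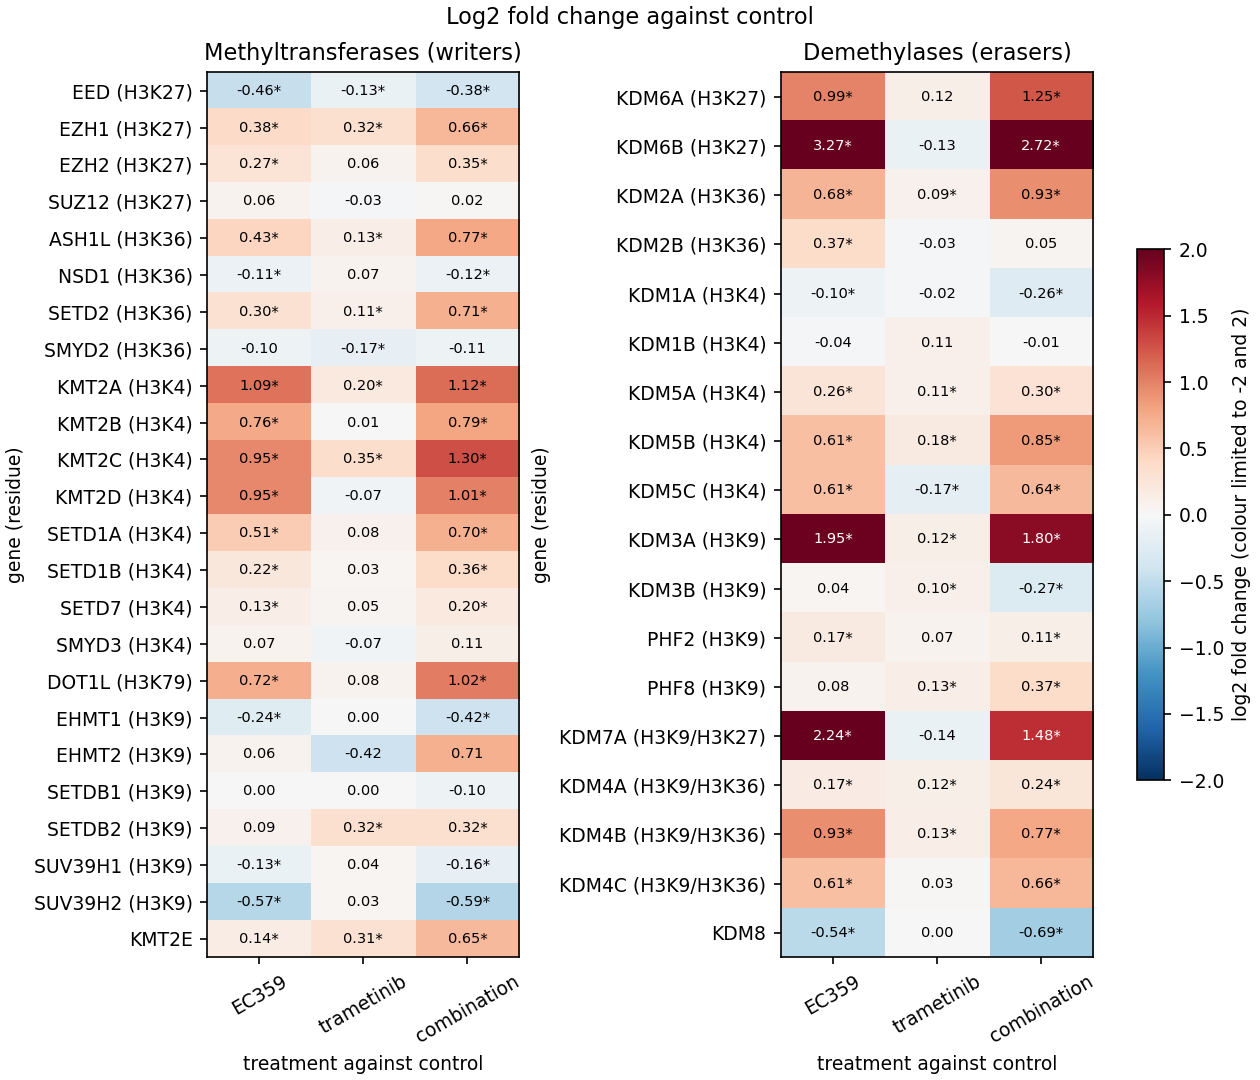
Log2 fold change of the 42 members against control for each treatment, in colour and as a number, with writers on the left and erasers on the right ordered by the residue they act on; an asterisk marks an adjusted p-value under 0.05 and the colour scale ends at -2 and 2. KDM6B (3.27), KDM7A (2.24) and KDM3A (1.95) had the highest values with EC359, and the trametinib column ran from -0.17 to 0.35 apart from EHMT2 (-0.42), whose libraries varied too widely to be compared.

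KDM6B, also known as JMJD3, had the largest rise of all members. It removes the trimethyl mark that Polycomb complexes place and is known as an early response gene in many cell types. KDM6B had 11.3, 12.4 and 11.6 CPM in control, 110.5, 115 and 115 CPM with EC359, 8.96, 12.99 and 10.6 CPM with trametinib and 77.6, 74.8 and 79.4 CPM with the combination. EC359 raised it 9.64-fold, a log2 change of 3.27 (SE 0.0645, adjusted p = 3.8e-22), and the combination raised it 6.57-fold, by 2.72 (SE 0.0667, adjusted p = 1.7e-20). All EC359 and combination libraries lay above all control and trametinib libraries. The combination lay below EC359 in every library, with a difference of -0.55 (SE 0.0509, adjusted p = 4.0e-09). The log2 change with trametinib alone was -0.13 (adjusted p = 0.32), with overlapping libraries. Without the highest trametinib library that change was -0.27 with an adjusted p of 0.006.

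KDM6A, or UTX, has the same substrate and is a subunit of the KMT2C and KMT2D complexes. KDM6A had 20.3, 21.1 and 20.7 CPM in control, 41.4, 39.3 and 43.2 CPM with EC359, 22.1, 21.3 and 23.9 CPM with trametinib and 48.4, 48.9 and 50.4 CPM with the combination. The change was 0.99 (SE 0.0522, adjusted p = 4.4e-24) with EC359 and 1.25 (SE 0.0513, adjusted p = 3.5e-29) with the combination, which lay above EC359 by 0.25 (adjusted p = 1.3e-05). The groups treated with EC359 did not overlap those without it. KDM6A ran highest with the combination and KDM6B highest with EC359 alone, and the ratio of KDM6B to KDM6A, per exon length (RPKM), was 0.502 ± 0.0149 in control, 0.430 ± 0.0965 with trametinib, 2.44 ± 0.128 with EC359 and 1.39 ± 0.0330 under both agents (SD, n = 3).

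KDM7A, which acts on dimethylated H3K9 and H3K27, was the lowest of all members per length in control, at 0.745 RPKM. KDM7A had 7.18, 6.56 and 6.77 CPM in control, 31.2, 33.8 and 31.5 CPM with EC359, 6.87, 5.74 and 5.94 CPM with trametinib and 19.96, 18.5 and 18.7 CPM with the combination. It rose 4.71-fold with EC359, by 2.24 (SE 0.0738, adjusted p = 1.7e-33), and 2.79-fold with the combination, by 1.48 (SE 0.0763, adjusted p = 1.2e-24). The combination libraries lay between the other groups, above every control library and below every EC359 library, and the difference from EC359 was -0.76 (SE 0.0670, adjusted p = 1.6e-14). Its relatives PHF8 and PHF2, H3K9 demethylases of the same PHD-JmjC family, changed by 0.08 (adjusted p = 0.12) and 0.17 (adjusted p = 0.0017) with EC359, and the call of PHF2 was lost under scaling by total counts (0.0399, adjusted p = 0.48).

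KDM3A, or JMJD1A, removes H3K9 mono- and dimethylation and is a known hypoxia-responsive gene. KDM3A had 40.3, 34.9 and 37.4 CPM in control, 151, 144 and 141 CPM with EC359, 40.8, 41.5 and 40.00 CPM with trametinib and 133, 128 and 131 CPM with the combination. The change was 3.87-fold, or 1.95 (SE 0.0377, adjusted p = 1.1e-44), with EC359 and 3.49-fold, or 1.80 (SE 0.0380, adjusted p = 6.1e-43), with the combination. Each EC359 and combination library was over 3 times the highest control library, and trametinib alone gave 0.12 (adjusted p = 0.028), a call that was lost on leaving out any of 4 libraries (0.07 to 0.12, adjusted p up to 0.29). KDM3B, its closest relative and an H3K9 demethylase as well, fell with the combination. KDM3B had 89.00, 90.03 and 90.4 CPM in control, 96.4, 89.7 and 91.1 CPM with EC359, 97.3, 94.3 and 97.9 CPM with trametinib and 76.2, 73.5 and 74.3 CPM with the combination. The combination libraries lay below those of all other groups, with a change of -0.27 (SE 0.0337, adjusted p = 5.3e-10), whereas EC359 gave 0.04 (adjusted p = 0.31) and trametinib 0.10 (adjusted p = 0.011). Under scaling by total counts EC359 gave -0.0949 (adjusted p = 0.0099) for KDM3B.

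**Figure D2:**
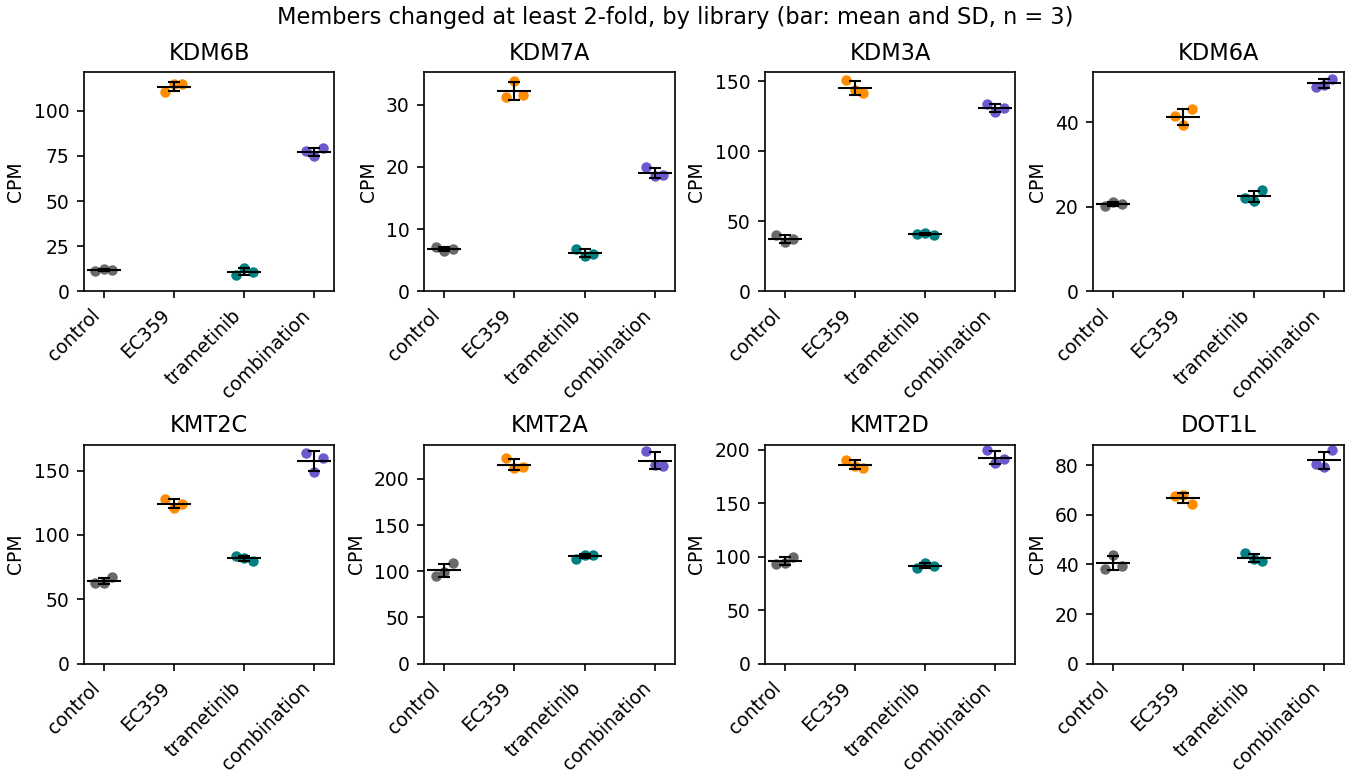
CPM of the 8 members that changed at least 2-fold in a comparison with control, on linear axes from 0, with 1 point for each library and the mean with its SD (n = 3 libraries for each condition). In all 8 panels the EC359 and combination libraries lie above the control and trametinib libraries; KDM6B and KDM7A are highest with EC359, KDM6A, KMT2C and DOT1L with the combination.

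The sequence before the start sites of 4 members that moved with EC359 is shown, 3 that rose and SUV39H2, which fell, so that the letters upstream of these genes can be read beside their values. Promoters of 40 of the 42 members were matched by symbol in a RefSeq table of GRCh38.p14, the assembly that hg38 also names, as 56 windows from 250 bases before to 50 after a start site, and the 250 bases before the start are printed 5′ to 3′ on the gene's own strand. The motifs were searched on both strands of the whole window, and which match is set in capitals was chosen after the matches were seen. The windows are chr17:7839667-7839916 on the plus strand for KDM6B, with the heat shock pattern GAANNTTC at -64 from the start, chr2:86441211-86441460 on the plus strand for KDM3A, with the AP-1 pattern TGANTCA at -40, chr7:140176984-140177233 on the minus strand for KDM7A, with ACGTG, the core of the hypoxia response element, at -180, and chr10:14878616-14878865 on the plus strand for SUV39H2, with TGACGT, part of the cyclic AMP response element, at -116 and, on the other strand and overlapping it, at -114.
KDM6B: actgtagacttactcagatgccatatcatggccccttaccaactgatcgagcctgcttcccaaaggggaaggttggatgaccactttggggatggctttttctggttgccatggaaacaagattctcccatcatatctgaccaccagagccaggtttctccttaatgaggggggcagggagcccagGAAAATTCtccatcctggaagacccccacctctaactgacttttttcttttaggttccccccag
KDM3A: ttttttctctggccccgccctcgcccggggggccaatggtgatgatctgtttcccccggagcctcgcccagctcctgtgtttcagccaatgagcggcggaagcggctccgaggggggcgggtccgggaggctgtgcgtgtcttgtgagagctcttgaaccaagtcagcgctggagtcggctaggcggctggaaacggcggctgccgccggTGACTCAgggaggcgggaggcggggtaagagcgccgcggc
KDM7A: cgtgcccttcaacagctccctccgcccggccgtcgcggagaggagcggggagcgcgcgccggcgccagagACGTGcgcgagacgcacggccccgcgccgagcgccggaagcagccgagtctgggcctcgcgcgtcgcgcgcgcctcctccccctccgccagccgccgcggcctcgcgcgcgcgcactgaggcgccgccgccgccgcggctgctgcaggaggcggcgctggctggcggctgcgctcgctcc
SUV39H2: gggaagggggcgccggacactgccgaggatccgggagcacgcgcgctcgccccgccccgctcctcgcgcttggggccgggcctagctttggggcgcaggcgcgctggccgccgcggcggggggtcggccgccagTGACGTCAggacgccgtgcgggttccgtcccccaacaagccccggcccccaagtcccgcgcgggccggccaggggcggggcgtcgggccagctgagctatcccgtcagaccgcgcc

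The start site of the printed KDM6B window is also the gene start in the count annotation, and KDM6B and KDM3A each have another listed start without the capitalised motif. The other KDM6B start lies at -5700 from that gene start, and the 250 bases before it hold 70.4% G and C and 21 CpG. Which start was used in these cells was not tested. The printed stretches differ in base composition, with 50.4% G and C and 1 CpG for KDM6B, 68.4% and 24 for KDM3A, 81.6% and 50 for KDM7A and 79.6% and 38 for SUV39H2. Over whole windows the median G and C content was 66.8% for the members and 58.7% for all 35116 promoters of the table. GAANNTTC occurred in 6.77% of all promoters and in those of 4 of the 40 matched members (KDM6B, PHF8, SETD1A and SUV39H1). TGANTCA occurred in 7.71% and 3 members (KDM3A, KDM4C and KDM6A), and TGACGT in 7.98% and 7 members. ACGTG was found in 21.4% of all promoters and 12 members, CACGTG, the E-box that contains it, in 7.26% and 7 members, and the ETS core CGGAAG in 19.5% and 12 members. Members with several listed starts had more windows in which a match could occur. Counted by gene, as the members are, GAANNTTC occurred in 8.21%, TGANTCA in 9.37% and TGACGT in 9.64% of all 27305 genes. The same shares were 24.9% for ACGTG, 8.77% for CACGTG and 22.6% for CGGAAG. A match is a run of letters in these windows and no evidence of binding.

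The 3 KDM4 genes, which act on trimethylated H3K9 and H3K36, all rose with EC359, KDM4B by 0.93 (SE 0.0417), KDM4C by 0.61 (SE 0.0615) and KDM4A by 0.17 (SE 0.0420), and all rose with the combination, by 0.77, 0.66 and 0.24. The call of KDM4A with EC359 was lost under scaling by total counts (0.0367, adjusted p = 0.45). Of the 5 H3K4 erasers, the KDM5 genes rose with EC359, KDM5B by 0.61 (SE 0.0429), KDM5C by 0.61 (SE 0.0332) and KDM5A by 0.26 (SE 0.0334), while KDM1A, the LSD1 demethylase of the CoREST complex, fell, at -0.10 (adjusted p = 4.9e-04) with EC359 and -0.26 (adjusted p = 3.0e-13) with the combination. KDM1A had the highest level per length of all members in control, 70.4 RPKM. KDM1B did not pass the test in either comparison (-0.04 and -0.01), except under scaling by total counts (-0.18 and -0.15). The H3K36 erasers KDM2A and KDM2B, CXXC proteins that bind unmethylated CpG DNA, both rose with EC359, by 0.68 (SE 0.0257) and 0.37 (SE 0.0437), but the combination took KDM2A to 0.93 (adjusted p = 1.3e-37) and left KDM2B at 0.05 (adjusted p = 0.3).

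KDM8, a JmjC protein whose demethylase activity is disputed, had the most negative change of the members with the combination. KDM8 had 4.998, 4.76 and 4.44 CPM in control, 2.45, 3.32 and 3.94 CPM with EC359, 5.02, 4.03 and 5.06 CPM with trametinib and 3.15, 2.83 and 2.82 CPM with the combination. The combination libraries lay below all control libraries, with -0.69 (SE 0.153, adjusted p = 8.0e-05), as did the EC359 libraries, with -0.54 (SE 0.152, adjusted p = 0.0017). These are low levels, and the SE is larger than for the other demethylases given by library.

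Of the 8 H3K4 methyltransferases, 7 rose with EC359 and 7 with the combination, and none fell in any of the 3 comparisons with control. The shares of all genes that rose were, in the same order, 30.8% and 35.0%, and those that fell 30.3% and 34.7%. A length of 6302 bp was exceeded by 7 of the 8. Among the 2061 tested genes at least that long, 51.6% and 51.2% rose, and 17.3% and 25.1% fell. Trametinib alone lowered 15.2% of all genes and 13.8% of these long ones. Whether the absence of falls among these 8 writers differs from that background was not tested. KMT2A, or MLL1, the menin-bound enzyme that is rearranged in leukaemias, led them with EC359. KMT2A had 95.00, 99.5 and 108 CPM in control, 222, 212 and 212 CPM with EC359, 114, 117 and 118 CPM with trametinib and 230.4, 215 and 214 CPM with the combination. The EC359 and combination groups lay above every other library, with changes of 1.09 (SE 0.0382, adjusted p = 6.0e-18) and 1.12 (SE 0.0382, adjusted p = 2.0e-18). KMT2B, its closest relative, gave 0.76 (SE 0.0343) and 0.79 (SE 0.0342).

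KMT2C, which monomethylates H3K4 at enhancers, had the largest rise of the writers with the combination and the largest of all members with trametinib. KMT2C had 62.4, 62.6 and 66.9 CPM in control, 128, 121 and 124 CPM with EC359, 83.6, 82.3 and 79.7 CPM with trametinib and 163, 149 and 159.9 CPM with the combination. The 4 groups did not overlap and stood in the order control, trametinib, EC359 and combination. The changes against control were 0.35 (SE 0.0364, adjusted p = 1.4e-11) with trametinib, 0.95 (SE 0.0353, adjusted p = 7.1e-30) with EC359 and 1.30 (SE 0.0346, adjusted p = 1.7e-36) with the combination.

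KMT2D shares its enhancer role and its complex with KMT2C. KMT2D had 93.04, 94.3 and 99.9 CPM in control, 190.5, 184 and 182 CPM with EC359, 89.2, 93.7 and 91.2 CPM with trametinib and 199, 187 and 191 CPM with the combination. The control and trametinib libraries overlapped, with -0.07 (adjusted p = 0.1), and EC359 and the combination gave 0.95 (SE 0.0307, adjusted p = 4.8e-34) and 1.01 (SE 0.0306, adjusted p = 2.3e-35). The ratio of KMT2C to KMT2D per length was 0.770 ± 0.00435 in control and 0.770 ± 0.0154 with EC359, and higher in every library with trametinib, at 1.03 ± 0.0408 with trametinib alone and 0.942 ± 0.0237 with the combination.

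SETD1A and SETD1B, which trimethylate H3K4 at promoters, gave 0.51 (SE 0.0346) and 0.22 (SE 0.0456) with EC359 and 0.70 (SE 0.0341) and 0.36 (SE 0.0451) with the combination. SETD7, better known for non-histone substrates, rose by 0.13 (adjusted p = 1.4e-04) and 0.20 (adjusted p = 1.2e-08). With EC359, scaling by total counts turned the direction of SETD7 (-0.0075) and ended the calls of SETD1B (0.0904, adjusted p = 0.077) and KMT2E (0.0099, adjusted p = 0.88). SMYD3, a MYND-domain enzyme, did not pass (0.07 and 0.11), with an adjusted p of 0.052 for the combination. There it passed with the size factors of DESeq2 (adjusted p = 0.047) and with values rounded down (adjusted p = 0.049). It also passed on leaving out any of several libraries, as without combination replicate 3 (0.16, adjusted p = 0.011). KMT2E, a member of the family without shown H3K4 activity, gave 0.31 (adjusted p = 2.3e-06) with trametinib, 0.14 (adjusted p = 0.017) with EC359 and 0.65 (adjusted p = 1.2e-16) with the combination. Its call with EC359 was lost on leaving out any of 3 libraries (0.09 to 0.13, adjusted p up to 0.18).

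DOT1L is the H3K79 methyltransferase. DOT1L had 38.3, 43.6 and 39.4 CPM in control, 67.8, 68.04 and 64.4 CPM with EC359, 44.5, 42.3 and 41.3 CPM with trametinib and 80.7, 79.2 and 85.98 CPM with the combination. The combination libraries lay above the EC359 libraries and these above the others, with 0.72 (SE 0.0439, adjusted p = 1.4e-20) for EC359 and 1.02 (SE 0.0430, adjusted p = 1.5e-27) for the combination. Of its exon bases, 8.89% lie opposite exons of PLEKHJ1, and the counts were made by strand. Of the 4 H3K36 writers, SETD2, the trimethylase that travels with elongating RNA polymerase, rose by 0.30 (SE 0.0292) with EC359 and 0.71 (SE 0.0285) with the combination, and ASH1L by 0.43 (SE 0.0414) and 0.77 (SE 0.0403). NSD1, a dimethylase, fell slightly, at -0.11 (adjusted p = 7.3e-04) and -0.12 (adjusted p = 4.7e-04). SMYD2 gave -0.10 (adjusted p = 0.16) and -0.11 (adjusted p = 0.12), and passed under scaling by total counts (-0.23 and -0.24).

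Of the 6 H3K9 writers 0 rose and 3 fell with EC359, where 0 rose at an unadjusted p-value under 0.05 or with DESeq2, and 1 rose and 3 fell with the combination. Of all genes 30.8% rose and 30.3% fell with EC359, and 35.0% and 34.7% with the combination. Among the 6 H3K9 writers SUV39H2, which trimethylates H3K9 in heterochromatin, fell most. SUV39H2 had 21.6, 21.2 and 21.5 CPM in control, 13.1, 14.5 and 15.7 CPM with EC359, 22.4, 22.8 and 20.6 CPM with trametinib and 13.3, 15.2 and 14.1 CPM with the combination. All EC359 and combination libraries lay below all others, with -0.57 (SE 0.0681, adjusted p = 1.6e-10) and -0.59 (SE 0.0682, adjusted p = 3.2e-11). SUV39H1, its relative, also fell, at -0.13 (adjusted p = 0.027) and -0.16 (adjusted p = 0.0052), and its call with EC359 was lost on leaving out any of 5 libraries (-0.13 to -0.10, adjusted p up to 0.12). The ratio of SUV39H2 to SUV39H1 per length was 0.644 ± 0.0278 in control and 0.475 ± 0.0331 with the combination.

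EHMT1, or GLP, forms the H3K9 mono- and dimethylating complex with EHMT2. EHMT1 had 78.01, 78.6 and 75.5 CPM in control, 66.5, 65.1 and 65.6 CPM with EC359, 74.2, 76.5 and 81.1 CPM with trametinib and 56.04, 58.5 and 59.1 CPM with the combination. The EC359 libraries lay below all control libraries and the combination libraries below all of those, with -0.24 (SE 0.0368, adjusted p = 1.6e-07) and -0.42 (SE 0.0374, adjusted p = 7.7e-15). EHMT2, or G9a, could not be compared. EHMT2 had 1.04, 0.729 and 10.8 CPM in control, 1.77, 10.2 and 1.10 CPM with EC359, 1.59, 0.684 and 7.17 CPM with trametinib and 2.55, 9.84 and 8.57 CPM with the combination. Its libraries of the same condition differed by up to about 10 CPM, and the change with the combination was 0.71 (SE 1.24, adjusted p = 0.63). The count annotation places EHMT2 on 7 sequences, chromosome 6 (hg38, chr6:31879760-31897707) and 6 alternative haplotypes of that region, its value was not whole in any of the 12 libraries, and reads with a mapping quality under 2 had been left out. Whether these account for the spread was not tested. SETDB1, which passed under scaling by total counts (-0.24), and SETDB2 gave -0.10 (adjusted p = 0.17) and 0.32 (adjusted p = 0.012) with the combination, and the latter call was lost without combination replicate 1 (0.24, adjusted p = 0.097) and under scaling by total counts (0.18, adjusted p = 0.15).

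The 4 core members of Polycomb repressive complex 2 (PRC2), which writes H3K27 methylation, moved in different directions. EZH2 is the main catalytic subunit in dividing cells and had the second highest level per length of all members in control (49.9 RPKM). EZH2 had 154, 152 and 148 CPM in control, 178, 187 and 183 CPM with EC359, 159, 164 and 152 CPM with trametinib and 193, 191 and 194 CPM with the combination. Its change was 0.27 (SE 0.0284, adjusted p = 1.6e-12) with EC359 and 0.35 (SE 0.0283, adjusted p = 2.0e-16) with the combination, with no overlap with control. EZH1 is the less active alternative to it. EZH1 had 18.7, 17.98 and 18.01 CPM in control, 24.7, 23.8 and 22.5 CPM with EC359, 22.5, 24.04 and 21.9 CPM with trametinib and 29.6, 27.9 and 29.1 CPM with the combination. It rose with each treatment, by 0.32 (SE 0.0587, adjusted p = 1.2e-05) with trametinib, 0.38 (SE 0.0592, adjusted p = 1.6e-07) with EC359 and 0.66 (SE 0.0581, adjusted p = 3.1e-15) with the combination.

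EED, which binds trimethylated H3K27 and stimulates the complex, fell. EED had 84.7, 83.98 and 85.1 CPM in control, 60.2, 62.8 and 61.5 CPM with EC359, 79.95, 77.98 and 74.6 CPM with trametinib and 65.2, 65.1 and 64.5 CPM with the combination. The EC359 libraries were the lowest and those with the combination next, below every control and trametinib library, with -0.46 (SE 0.0354, adjusted p = 4.3e-17) and -0.38 (SE 0.0352, adjusted p = 2.0e-14). SUZ12 is the scaffold of the complex. SUZ12 had 104, 98.8 and 104 CPM in control, 104, 106 and 110.3 CPM with EC359, 102, 96.6 and 100.2 CPM with trametinib and 107, 101 and 102 CPM with the combination. The EC359 libraries lay above all control and trametinib libraries, though the lowest of them by very little, and the other groups overlapped. It did not pass the test, at 0.06 (adjusted p = 0.087) with EC359 and 0.02 (adjusted p = 0.63) with the combination. Under scaling by total counts SUZ12 was called lower with the combination (-0.12, adjusted p = 0.0011). Without EC359 replicate 1 it was called higher with EC359 (0.0849, adjusted p = 0.037). The summed level of KDM6A and KDM6B over that of EZH1 and EZH2, a ratio of RPKM that does not depend on library size, was 0.0974 ± 0.00382 in control, 0.0948 ± 0.00711 with trametinib, 0.365 ± 0.00983 with EC359 and 0.284 ± 0.00463 under both agents (SD, n = 3).

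Summed over all members of a class, the writers stood at 270.5 ± 2.86 RPKM in control, 302.8 ± 0.976 with EC359, 275.1 ± 1.4 with trametinib and 324.2 ± 3.1 under both agents, and the erasers at 198.2 ± 1.88, 273.4 ± 2.79, 203.9 ± 0.725 and 264.4 ± 3.44 RPKM. The erasers' sum relative to the writers' was 0.733 ± 0.00234 in control, 0.741 ± 0.00606 with trametinib, 0.903 ± 0.0121 with EC359 and 0.816 ± 0.00356 with the combination. EC359 and combination libraries did not overlap each other or the other groups in this ratio. KDM3A, KDM6B and KDM2A made up 69.4% of the gain in the erasers' sum with EC359 and 77.5% of that with the combination. The writers' sum includes the non-catalytic PRC2 subunits EED and SUZ12. EED stood at 33.4 RPKM in control, 24.3 with EC359 and 25.6 with the combination, and SUZ12 at 22.8, 23.8 and 23.1. The fall of EED thus adds to the shift in the ratio, which was not computed without these subunits. All of these are sums of transcripts and say nothing of enzyme activity.

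**Figure D3:**
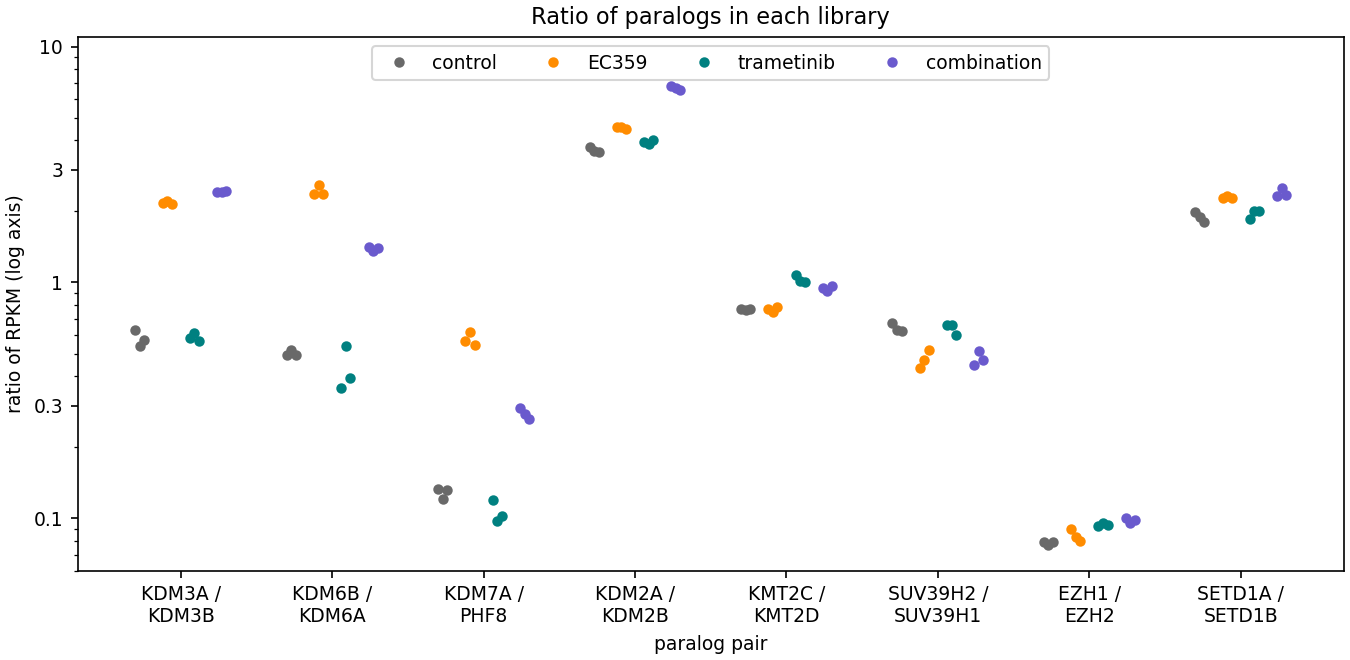
Ratio of the RPKM of paralogs in each library for 8 pairs, on a log axis, with 3 points for each condition. KDM3A over KDM3B went from 0.579 in control to 2.18 with EC359 and 2.43 with the combination. EZH1 over EZH2 rose by less, from a mean of 0.0786 in control to 0.0979 under both agents. Every treated library (lowest 0.0803, an EC359 library) lay above every control library (highest 0.0795) in that ratio.

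Related enzymes with a shared substrate changed by different amounts, which the ratios show without any scaling between libraries. KDM3A over KDM3B was 0.579 ± 0.0451 in control, 0.586 ± 0.0224 with trametinib, 2.18 ± 0.0363 with EC359 and 2.43 ± 0.0143 under both agents, so that the more abundant paralog was KDM3B without EC359 and KDM3A with it. The same exchange of order occurred for KDM6A and KDM6B. KDM7A stayed below PHF8, at 0.129 ± 0.00638 of its level in control and 0.575 ± 0.0372 with EC359. KDM2A over KDM2B ran from 3.64 ± 0.0895 in control to 6.68 ± 0.105 with the combination. KMT2A over KMT2B went from 0.843 ± 0.0393 to 1.06 ± 0.0482. These ratios were compared without a test.

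Adding trametinib to EC359 raised 14 members and lowered 8 relative to EC359 alone, against 24.1% and 25.2% of all genes. Of the writers 10 were higher and 1 (EHMT1) lower, and of the erasers 4 were higher and 7 lower. No member changed 2-fold, against 1.69% of all genes higher and 1.55% lower. The largest rises were those of KMT2E, at 0.50 (SE 0.0516), SETD2, at 0.41 (SE 0.0284), KMT2C, at 0.34 (SE 0.0328), and ASH1L, at 0.34 (SE 0.0397), and the largest falls those of KDM7A, at -0.76 (SE 0.0670), KDM6B, at -0.55 (SE 0.0509), KDM2B, at -0.32 (SE 0.0444), and KDM3B, at -0.31 (SE 0.0342). Adding EC359 to trametinib raised 26 and lowered 9, against 35.3% and 32.9% of all genes, and 21 and 12 when scaled by total counts, where the median of all genes was -0.16. A 2-fold rise was found for 5 members (6.12% of all genes) and a 2-fold fall for 0 (5.48%).

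The interaction is the log2 effect of EC359 with trametinib present (combination against trametinib) less that without it (EC359 against control). It passed the test for 18 members, 9 in each direction, against 14.4% of all genes higher and 15.9% lower. Of the writers 6 were higher and 2 lower, and of the erasers 3 were higher and 7 lower. None reached 2-fold, which 0.881% of all genes did upwards and 0.686% downwards. The most negative values belonged to KDM7A, at -0.62 (SE 0.109, adjusted p = 8.5e-06), whose effect of EC359 was 2.24 without and 1.62 with trametinib, to KDM6B, at -0.42 (SE 0.103, adjusted p = 0.0029), with 3.27 and 2.85, and to KDM3B, at -0.41 (SE 0.0471, adjusted p = 4.5e-10), with 0.04 and -0.37. In KDM7A and KDM6B a strong rise was smaller with trametinib, and in KDM3B no rise or fall was called without trametinib and a fall was called with it. Under scaling by total counts a fall of KDM3B was called without trametinib as well (-0.0949, adjusted p = 0.0099). The most positive values that passed belonged to the writers SETD2, at 0.30 (SE 0.0407, adjusted p = 2.7e-08), and DOT1L, at 0.22 (SE 0.0616, adjusted p = 0.0049), the eraser KDM5C, at 0.21 (SE 0.0474, adjusted p = 3.7e-04), and the writer ASH1L, at 0.21 (SE 0.0576, adjusted p = 0.0044). Their rise with EC359 was larger with trametinib present. KDM6A, KMT2B and KMT2C did not pass, at 0.14 (adjusted p = 0.16), 0.02 (adjusted p = 0.79) and -0.01 (adjusted p = 0.89).

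**Figure D4:**
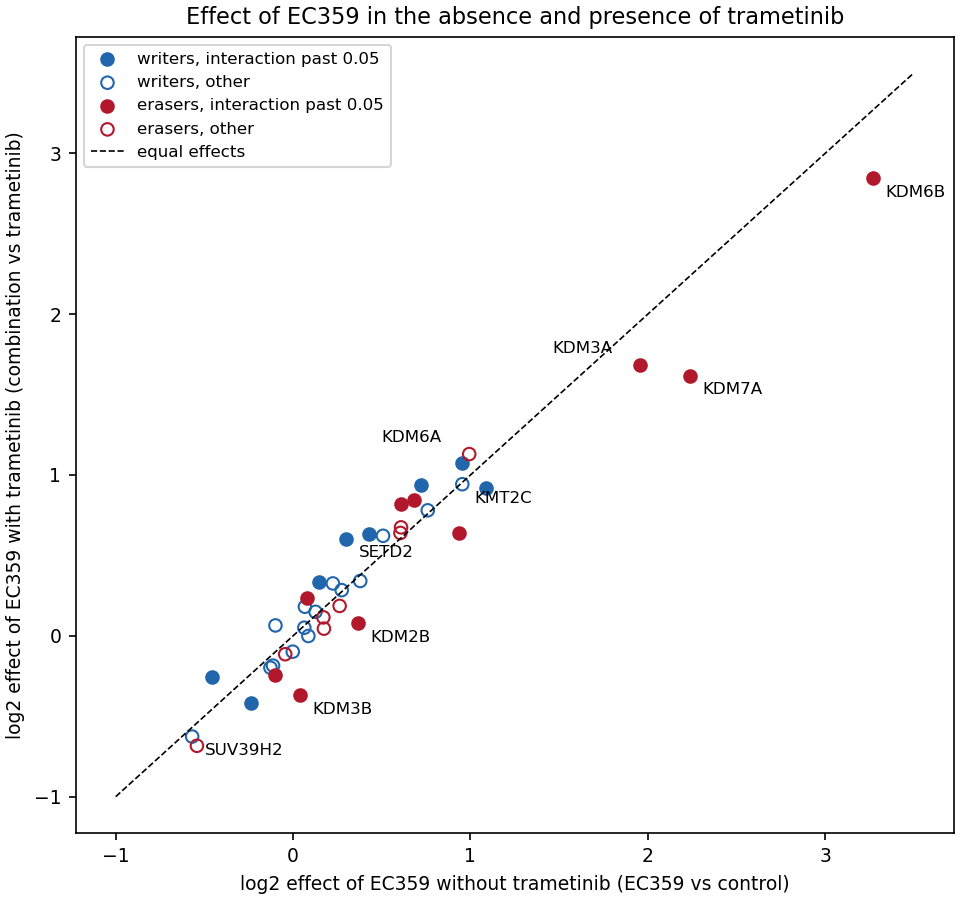
Log2 effect of EC359 without trametinib (EC359 against control, horizontal) and with it (combination against trametinib, vertical) for 41 members, EHMT2 being left out; filled points passed the interaction test and the dashed line marks equal effects. KDM6B, KDM7A and KDM3A lie below the line, with interaction values of -0.42, -0.62 and -0.27, and SETD2 (0.30) lies above it.

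The effects of trametinib alone were small, at most 0.35 (SE 0.0364) for KMT2C, 0.32 (SE 0.116) for SETDB2, 0.32 (SE 0.0587) for EZH1 and 0.31 (SE 0.0517) for KMT2E among those that rose, and -0.17 (SE 0.0347) for KDM5C, -0.17 (SE 0.0603) for SMYD2 and -0.13 (SE 0.0340) for EED among those that fell. Of its 18 calls, 8 were kept in every refit without a library, and SETDB2 and SMYD2 were among the 10 that were not, each lost on leaving out any of several libraries (0.26 to 0.35 and -0.18 to -0.13). The control and trametinib libraries of KMT2C, EZH1 and EED did not overlap.

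The members are long genes. Their median exon length was 6302 bp, with a range of 1685 to 19419 bp, against 3132 bp over all genes tested, and their median number of exon blocks was 22 against 9. Of the 2061 tested genes at least as long as the members' median, 51.6% rose and 17.3% fell with EC359, and 51.2% rose and 25.1% fell with the combination. The members' shares were 61.9% and 16.7% with EC359 and 64.3% and 19.0% with the combination. Spearman's rho between exon length and log2 change was 0.58 over the 42 members with EC359 and 0.19 over all genes tested, and 0.56 and 0.09 with the combination, which describes genes measured in the same libraries and not independent replicates. A rise of at least 2-fold was seen in 4.85% of the long genes with EC359 and 8.49% with the combination. The members' rises ran alongside length, and the part of length in them was not tested.

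Other genes of these pathways were counted by lists given by name. Of 13 subunits of the COMPASS complexes that carry the H3K4 writers, 5 rose and 5 fell with the combination, or 38.5% each, beside 35.0% and 34.7% of all genes. MEN1 (menin, a partner of KMT2A) fell, at -0.60 (SE 0.0319, adjusted p = 4.3e-24), as did PAGR1, a subunit of the KMT2C and KMT2D complexes, at -0.96 (SE 0.0480, adjusted p = 3.2e-25), while BOD1L1, which associates with SETD1 enzymes, rose by 0.69 (SE 0.0393, adjusted p = 6.7e-16). Of 7 PRC2 accessory subunits that passed the filter, 3 rose and 1 fell. PHF1, which the count annotation also places on an alternative haplotype sequence, was at 1.22 (SE 0.268, adjusted p = 0.0031) and JARID2 at 0.61 (SE 0.0327, adjusted p = 5.2e-24). Of 21 subunits of PRC1, the complex that reads H3K27 trimethylation and ubiquitinates H2A, 10 rose and 6 fell with EC359. Of all genes 30.8% rose and 30.3% fell with EC359. With the combination 8 of the 21 subunits rose and 9 fell. Falls of at least 2-fold with the combination were those of PHC2, at -1.58 (SE 0.0489, adjusted p = 5.0e-35), with -1.43 under trametinib alone, L3MBTL2, at -1.25 (SE 0.0473, adjusted p = 5.9e-31) and CBX2, at -1.24 (SE 0.0940, adjusted p = 6.2e-16). In the interaction 0 of the 21 PRC1 genes were higher and 8 were lower (edgeR), beside 14.4% and 15.9% of all genes, and 0 were higher at an unadjusted p-value under 0.05 or with DESeq2.

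Of 17 CoREST and LSD1 partners 9 rose and 5 fell with the combination (52.9% and 29.4%), beside 35.0% and 34.7% of all genes. GSE1 was at 0.74 (SE 0.0394, adjusted p = 5.0e-24) and MTA2 at -0.55 (SE 0.0260, adjusted p = 2.5e-26). Of 11 partners of the H3K9 writers 6 rose and 4 fell (54.5% and 36.4%). The heterochromatin protein genes CBX5 and CBX3 were at -0.54 and -0.43 and the corepressor TRIM28 at 0.44. In the list of 21 genes that supply S-adenosylmethionine and 2-oxoglutarate, 7 rose and 10 fell (33.3% and 47.6%). MAT2A, which makes S-adenosylmethionine, the methyl donor of the catalytic writers, fell most. It went from 253 ± 4.67 CPM in control to 103 ± 3.93 CPM with the combination and 82.9 ± 2.97 CPM with EC359 (SD, n = 3). The change was -1.29 (SE 0.0293, adjusted p = 1.5e-41) with the combination and -1.61 (SE 0.0301, adjusted p = 1.3e-45) with EC359.

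Of 8 arginine methyltransferases and WDR77, a cofactor of PRMT5 without such activity, 0 rose and 7, WDR77 among them, fell both with EC359 and with the combination (edgeR), and 0 rose at an unadjusted p-value under 0.05 or with DESeq2. Of all genes 30.8% rose and 30.3% fell with EC359, and 35.0% and 34.7% with the combination. PRMT6, which methylates H3R2 next to the H3K4 mark, went from 33.3 ± 1.44 CPM in control to 11.2 ± 0.211 CPM with EC359 and 6.05 ± 0.542 CPM with the combination, where the change was -2.46 (SE 0.0699, adjusted p = 7.5e-37). Of 13 acetyltransferases 9 rose and 2 fell with EC359 (69.2% and 15.4%), and 9 rose and 1 fell with the combination (69.2% and 7.69%). CREBBP, a coactivator that acetylates H3K27, rose from 52.9 ± 1.08 to 203 ± 10.2 CPM, by 1.94 (SE 0.0351, adjusted p = 2.1e-43), and its relative EP300 by 0.79 (SE 0.0321, adjusted p = 2.1e-29). Of 17 deacetylases 8 rose and 3 fell with the combination (47.1% and 17.6%), with HDAC5 at 1.30 (SE 0.0343, adjusted p = 2.6e-38).

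Of 16 further lysine methyltransferases 6 rose and 6 fell with the combination, or 37.5% each, beside 35.0% and 34.7% of all genes. KMT5C, the H4K20 enzyme listed under the older symbol SUV420H2, rose by 1.86 (SE 0.101, adjusted p = 9.7e-24). EEF1AKMT1, listed as N6AMT2, fell, at -1.26 (SE 0.162, adjusted p = 8.4e-10), as did SETMAR, at -0.83 (SE 0.110, adjusted p = 2.1e-09). Of 5 further demethylases 2 rose, both at least 2-fold, and 3 fell. KDM4D was at -1.42 (SE 0.202, adjusted p = 1.2e-08) and RIOX1, listed as C14orf169, at -1.72 (SE 0.0876, adjusted p = 7.3e-25). HR, one of those that rose, was at 1.07 (SE 0.172, adjusted p = 2.0e-07). PRDM9, MECOM, KDM4E, EZHIP and EPOP did not pass the filter on low counts. These lists were chosen with earlier results of the same libraries known, and the examples are among the genes with the largest changes in each.

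**Figure D5:**
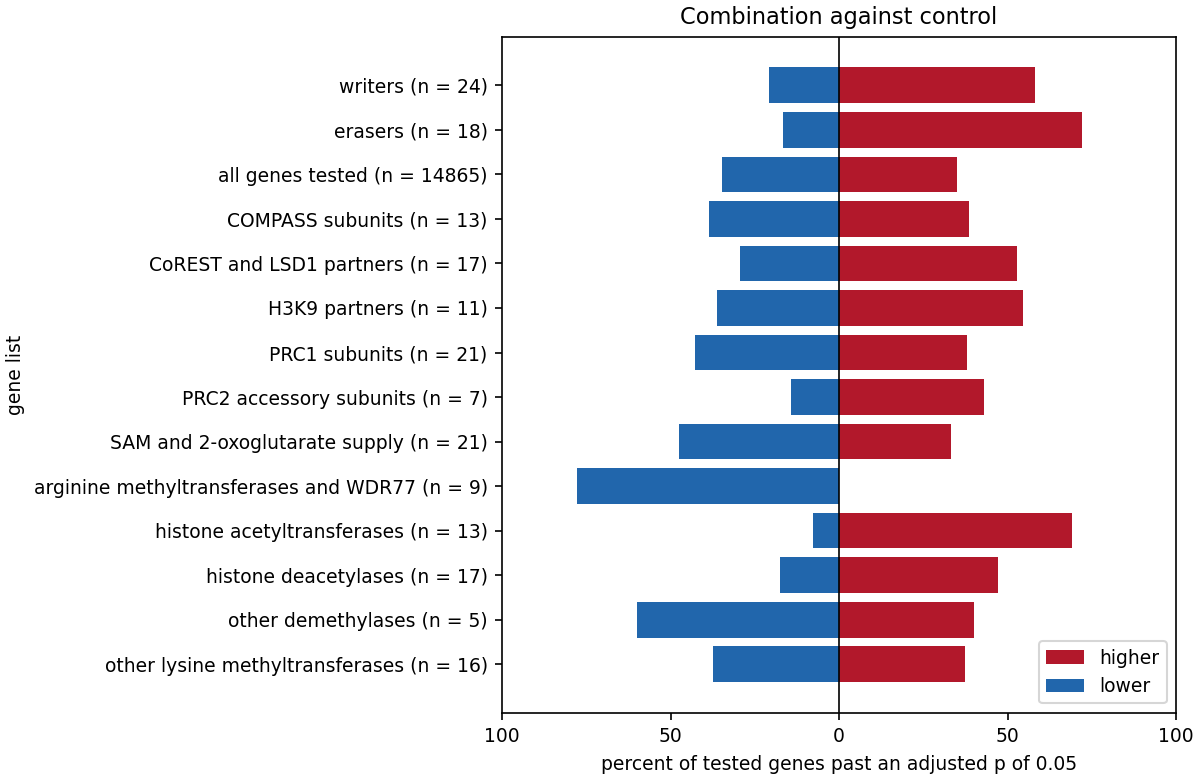
Percent of the tested genes of each list that were lower (left of 0) and higher (right of 0) with the combination than in control at an adjusted p-value under 0.05, with the number of genes tested in brackets. Writers (58.3% higher, 20.8% lower) and erasers (72.2% higher, 16.7% lower) stand beside all genes tested (35.0% and 34.7%), and in the list of arginine methyltransferases and the cofactor WDR77 0 rose and 77.8% fell.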

How the data were processed

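The deposited values are estimated counts (expected counts) for 1 library each. Per the file headers, the authors used featureCounts 1.5.0-p1 (paired, reverse-stranded, mapping quality of at least 2), summed by gene over hg38 exons, giving reads with several placements or overlapping genes as fractions. The submitters' processing notes also name HISAT2 and bcl2fastq. Not whole were 12.4% to 15.1% of each library's gene values, and all were rounded.

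In R 4.3.3, edgeR 4.0.16 was used after its filterByExpr (count of 10, total of 15). TMM factors lay between 0.947 and 1.06. A robust quasi-likelihood model was fitted to all 12 libraries, with Benjamini-Hochberg adjustment over the 14865 genes tested, and the biological coefficient of variation was 3.95%. CPM used TMM library sizes, and RPKM divided CPM by exon length. A gene was called at an adjusted p-value under 0.05. The model was tested on simulated data. The members and lists were chosen with earlier results of these data known. Members given library by library are those changed at least 2-fold against control, the 3 largest and the 3 most negative changes with the combination, the 3 largest interactions, and the PRC2 core.

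Alternatives were DESeq2 1.42.0, its size factors, total counts, other filters, values rounded down, a replicate block, fits to the compared groups alone, and each library left out. The precision is that of the spread between these libraries.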

Additional observations from a re-analysis of the deposited data

Results flagged for a closer look

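The effect of EC359 differed with and without trametinib, by the interaction test of edgeR, for 18 members. It was smaller or more negative with trametinib for KDM7A (-0.62), KDM6B (-0.42), KDM3B (-0.41), KDM2B (-0.29), KDM4B (-0.29), KDM3A (-0.27), EHMT1 (-0.18), KMT2A (-0.17) and KDM1A (-0.14), all on the log2 scale. It was larger or less negative for SETD2 (0.30), DOT1L (0.22), ASH1L (0.21), KDM5C (0.21), EED (0.20), KMT2E (0.19), KDM2A (0.16), PHF8 (0.16) and KMT2D (0.12). Of these, 14 passed in every refit without a library. The calls of KMT2A, KMT2D, KMT2E and PHF8 were lost on leaving out any of 2, 6, 7 and 7 libraries, with values of -0.16, 0.09 to 0.12, 0.11 to 0.18 and 0.13 to 0.16 in those refits.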

How the results depend on the processing

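With a minimum change of 2-fold the members higher and lower were 4 and 0 with EC359, 0 and 0 with trametinib, 8 and 0 with the combination, 0 and 0 for the combination against EC359, 5 and 0 for it against trametinib, and 0 and 0 for the interaction. Leaving out each library gave 25 to 27 higher and 6 to 7 lower with EC359, 10 to 15 and 2 to 4 with trametinib, 25 to 28 and 8 with the combination, 11 to 14 and 8 against EC359, 25 to 26 and 8 to 9 against trametinib, and 6 to 9 and 8 to 9 for the interaction. The 10 were without trametinib replicate 2. Scaling by total counts alone turned the direction of SETD7 (-0.0075) and KDM3B (-0.0949) with EC359, SUZ12 (-0.12) and PHF2 (-0.0247) with the combination, and SETD7 (-0.0145), SUZ12 (-0.11), KDM4A (-0.0491) and PHF2 (-0.12) for the combination against trametinib, with the median of all genes at -0.15, -0.14 and -0.16. Under every alternative for single members, 27 of 33 calls were kept with EC359, 8 of 18 with trametinib, 33 of 35 with the combination, 19 of 22 against EC359, 29 of 35 against trametinib and 14 of 18 for the interaction. Same-numbered libraries of different conditions did not deviate together over all genes tested (correlations from -0.0669 to 0.0304). That does not show whether they were prepared together. The replicate block gave 26 and 7, 15 and 3, 27 and 8, 14 and 8, 26 and 9, and 9 and 9 members higher and lower, with no call changed. KDM8, SETDB2, KDM7A and EHMT2 averaged below 10 CPM in control, where counting error weighs most.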
